A study of Mus musculus with 4 samples.

Results

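Classically activated macrophages (CAM) treated with mML56, a peptide of residues 1 to 56 of the adhesion protein Ninj1, were compared with CAM that received no peptide. The comparison used 3 of the 4 mRNA sequencing libraries of the series, 2 of mML56-treated CAM and 1 of CAM, which were chosen by their column names. The remaining library, of macrophages kept in M-CSF alone, entered the fit and is given as the unstimulated level. All 3 groups came from blood of C57BL/6J mice aged 10 to 16 weeks, although the strain label of the mML56 samples reads C57BL/7J. Blood of 60 mice (1 ml each) was pooled, so no library stands for a single animal, and monocytes selected for CD11b were grown in 30 ng/ml M-CSF over 6 or 7 days. CAM and mML56-treated CAM received LPS (500 ng/ml) together with IFNγ (20 ng/ml), and the M-CSF macrophages were not. The dose and duration of the peptide are not given in the labels used here. Separate cultures are not stated for the libraries, so p-values measure only the spread between the mML56 libraries, which may be technical. The deposited data covered 32617 genes, 32400 of them with a symbol, and 14067 of those with one had enough counts to be tested.

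Ninj1 is a small membrane protein that holds cells together by binding to itself on a neighbouring cell, and it also ruptures the plasma membrane during lytic cell death. Its outer N-terminal segment can be shed as a soluble form, which mML56 was made to mimic. LPS acts through TLR4 on NF-kB and AP-1 factors, and IFNγ acts through JAK kinases. Together they drive macrophages to make IL-12, chemokines, prostaglandins and nitric oxide.

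Il12b, Cxcl2 and Slc7a11 had the 3 deepest falls with mML56 among genes that reached 50 CPM and met the naming rule, and Saa3 rose. The 250 bases before the start of each gene are shown because these are the regions where LPS-activated factors commonly bind. The sequences are from RefSeq on GRCm38.p6, each 5′ to 3′ on the strand of the gene, and capitals mark matches to searched motifs. Il12b lies at chr11:44399813-44400062 (plus strand), Cxcl2 at chr5:90903649-90903898 (plus strand), Slc7a11 at chr3:50443614-50443863 (minus strand) and Saa3 at chr7:46715677-46715926 (minus strand).
Il12b: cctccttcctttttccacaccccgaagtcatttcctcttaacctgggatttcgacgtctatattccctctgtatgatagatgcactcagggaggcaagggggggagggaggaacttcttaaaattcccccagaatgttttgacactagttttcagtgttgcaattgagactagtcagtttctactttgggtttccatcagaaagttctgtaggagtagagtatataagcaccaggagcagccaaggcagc
Cxcl2: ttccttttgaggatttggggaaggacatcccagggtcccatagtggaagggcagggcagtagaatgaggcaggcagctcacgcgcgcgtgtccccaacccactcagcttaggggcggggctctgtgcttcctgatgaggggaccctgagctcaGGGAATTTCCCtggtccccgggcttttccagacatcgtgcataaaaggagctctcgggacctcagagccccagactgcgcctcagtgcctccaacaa
Slc7a11: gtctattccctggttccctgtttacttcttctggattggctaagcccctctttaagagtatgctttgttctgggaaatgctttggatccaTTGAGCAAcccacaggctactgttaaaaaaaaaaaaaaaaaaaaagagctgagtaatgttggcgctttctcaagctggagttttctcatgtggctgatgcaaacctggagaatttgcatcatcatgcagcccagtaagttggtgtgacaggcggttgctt
Saa3: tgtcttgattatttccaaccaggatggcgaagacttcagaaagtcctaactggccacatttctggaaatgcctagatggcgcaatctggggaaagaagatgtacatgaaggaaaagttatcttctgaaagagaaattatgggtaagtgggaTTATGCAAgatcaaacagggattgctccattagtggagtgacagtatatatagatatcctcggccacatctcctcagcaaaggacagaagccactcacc

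Both strands were searched for 5 motifs. The NF-kB consensus occurs in 7.25% of 32841 promoter windows of this length, and the Cxcl2 window holds 2 matches, which overlap on opposite strands. TTGCNNAA, the C/EBP motif, occurs in 9.57% of windows and was found once in the Slc7a11 window and once in the Saa3 window. TGANTCA of AP-1 (6.75% of windows), TGACNNNGC of NRF2 (10.2%) and the interferon-stimulated response element consensus (0.146%) had no match in these 4 windows. The Il12b window held no match to the 5 motifs in the forms used here. Looser NF-kB and interferon forms, searched first, gave more matches in these windows. A missing match here does not mean a missing site. A match describes letters only and says nothing of binding.

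The libraries held 12842750 and 12119505 estimated counts for mML56 libraries 1 and 2, 10334062 for CAM and 12414713 for M-CSF macrophages. The mML56 libraries were alike, with 78 of 7057 genes (1.105%) at least 2-fold apart at a mean of at least 10 CPM (counts relative to the library total, the scale of all levels given here). Of 15 macrophage markers, 15 stood at 1 CPM or more in each mML56 library, 14 in CAM and 15 in M-CSF macrophages, the exception being Cebpa in CAM. B cell markers summed to 3.01 CPM or less in the mML56 and CAM libraries and to 142 CPM in M-CSF macrophages. Ly6g and Cd3e were listed at 0 in all 4 libraries. Neutrophil markers summed to 244 and 278 CPM with mML56, against 92.4 CPM in CAM, mostly from Csf3r, which macrophages also express, and 4 of the 12 were at 0 in every library. T and NK markers summed to 56.7 and 60.5 CPM with mML56, against 136 CPM in CAM, mostly from Il7r, and 6 of 14 were at 0 throughout. Dendritic cell markers summed to 16.5 and 18.4 CPM with mML56, against 58.7 CPM in CAM, and fibroblast and endothelial markers to 91.7 and 98.6 CPM with mML56, against 57.7 CPM in CAM, mostly from Kdr. Platelet, erythroid and basophil markers each summed to 14.2 CPM or less in the mML56 and CAM libraries. Platelet markers summed to 109 CPM in M-CSF macrophages. Of the tested markers, 1 rose and 1 fell of 5 for neutrophils (1 and 0 by DESeq2), 0 and 1 of 5 for T and NK cells, 0 and 0 of 3 for B cells, 2 and 0 of 4 for platelets (1 and 0), 0 and 1 of 1 for erythroid cells (0 and 0), 0 and 0 of 2 for basophils and mast cells, 1 and 2 of 6 for dendritic cells (0 and 2), and 2 and 1 of 6 for fibroblasts and endothelium (1 and 0). The part of any of these cells in the results below was not tested.

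Several inflammatory transcripts were far lower in mML56-treated CAM than in CAM, and others were higher. In all, 5320 of 14104 tested genes (37.7%) passed an adjusted p of 0.05 (Benjamini-Hochberg, from the quasi-likelihood test of edgeR), 2904 higher (20.6%) and 2416 lower (17.1%) with mML56. The median log2 fold change over all tested genes was 0.05. At a fold of 4 or more 806 rose and 579 fell, and at 8 or more 491 rose and 272 fell. The single CAM library listed 14847 genes above 0, against 16748 and 17037 with mML56 and 17548 in M-CSF macrophages. The part of this difference in the number of rises was not tested. Without a test, 1670 of 7006 genes at 10 CPM or more (23.8%) differed at least 2-fold, 1150 higher (16.4%) and 520 lower (7.42%). The alternative count test, DESeq2's Wald test, called 1419 genes higher and 930 lower, and its counts stand in parentheses beside each list below. The edgeR counts of each list are to be read beside the 20.6% and 17.1% over all tested genes. Because the samples are bulk RNA, fewer cells of a type and less RNA per cell cannot be told apart. The wide spread of fold changes at low levels is visible in the plot of all tested genes.

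**Figure D1:**
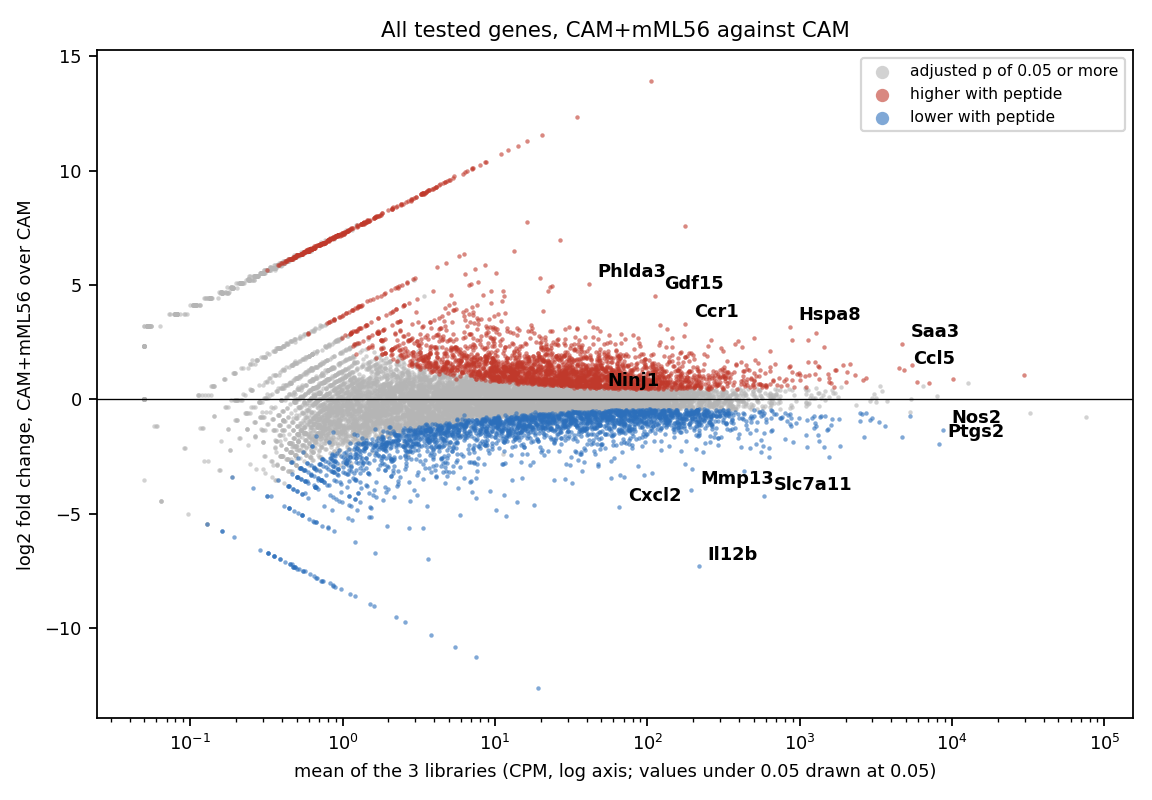
Log2 fold change of mML56-treated CAM over CAM for each tested gene (y axis) against its mean CPM over the 3 libraries (x axis, log scale). Red and blue points are the 2904 genes called higher and the 2416 called lower; grey points did not pass, and the diagonal bands at the edges are genes with 0 or few counts in 1 group, whose fold changes depend on the prior count.

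Of the genes that the naming rule admits, Il12b fell the most. Il12b (ENSMUSG00000004296, mm10 chromosome 11, 44400063 to 44414033), the p40 subunit that IL-12 shares with IL-23, stood at 5.22 and 3.38 CPM in mML56 libraries 1 and 2, against 643 CPM in CAM and a listed 0 in M-CSF macrophages. Both mML56 libraries lay far below CAM, with a log2 fold change of -7.29 (SE 0.23, edgeR adjusted p = 2.66e-09). Cxcl2 (ENSMUSG00000058427), a chemokine that draws neutrophils, had 6.46 and 8.25 CPM with mML56, against 182 CPM in CAM and 2.01 CPM in M-CSF macrophages. Its log2 fold change was -4.71 (SE 0.19, edgeR adjusted p = 1.3e-08), and both mML56 libraries lay far below CAM and above M-CSF macrophages. Slc7a11 (ENSMUSG00000027737), the cystine importer that feeds glutathione synthesis, had 83.5 and 96.1 CPM with mML56, against 1583 CPM in CAM and 14.7 CPM in M-CSF macrophages, a log2 fold change of -4.23 (SE 0.17, edgeR adjusted p = 1.3e-08). Saa3 (ENSMUSG00000040026), an acute-phase serum amyloid protein, went the other way. It had 6548 and 6347 CPM with mML56, against 1139 CPM in CAM and 9.85 CPM in M-CSF macrophages (log2 fold change 2.42, SE 0.25, edgeR adjusted p = 2.05e-05). Ninj1 itself (ENSMUSG00000037966) had 49.4 and 53.1 CPM with mML56, against 39.9 CPM in CAM and 50.4 CPM in M-CSF macrophages, a log2 fold change of 0.28 (SE 0.18) that did not pass (edgeR adjusted p = 0.255).

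Mmp13, a collagenase, had 32.2 and 37.5 CPM with mML56, against 514 CPM in CAM (log2 fold change -3.97). Mmp12, the macrophage elastase, had 26.7 and 33.1 CPM against 261 CPM in CAM (-3.22). M-CSF macrophages had 8.70 CPM of Mmp13 and 246 CPM of Mmp12, so the fall of Mmp12 went below its unstimulated level. In both cases the mML56 libraries were close together and far below CAM. Il6 had 7.05 and 6.88 CPM with mML56, against 81.9 CPM in CAM (-3.64). Gatm, which makes the creatine precursor, had 5.92 and 5.61 CPM with mML56, against 62.2 CPM in CAM and 59.8 CPM in M-CSF macrophages (-3.51). Mcl1, an anti-apoptotic protein, had 11.1 and 2.55 CPM with mML56, against 73.2 CPM in CAM (-3.46, edgeR adjusted p = 0.000171). In M-CSF macrophages Mcl1 was listed at 0, which may be a failed estimate. Its mML56 libraries lay well apart from each other (-4.98 without library 1 and -2.69 without library 2), and neither DESeq2 (adjusted p = 0.218) nor edgeR with a robust prior (adjusted p = 0.308) called it. Adgb, Rpl19, Prpf8 and Maged1 completed the 12 deepest falls, with log2 fold changes of -3.44, -3.40, -3.30 and -3.29, and Prpf8 (-3.96 without library 1) was not called with the robust prior (adjusted p = 0.0726). Rpl19 is a ribosomal protein gene with many processed copies in the genome, so its counts are uncertain.

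Phlda3, a p53 target that restrains AKT, led the rises with 69.1 and 52.7 CPM under mML56, against 1.74 CPM in CAM and 23.8 CPM in M-CSF macrophages (log2 fold change 5.05, SE 0.35, edgeR adjusted p = 1.49e-06). Gdf15, a stress-induced cytokine, had 211 and 119 CPM with mML56, against 6.87 CPM in CAM (4.52), and was not called with the robust prior (adjusted p = 0.0744). Mavs, the mitochondrial adaptor of RNA sensing, had 65.3 and 53.8 CPM with mML56, against 5.23 CPM in CAM and 52.9 CPM in M-CSF macrophages (3.43). Ccr1, a receptor for CC chemokines, had 209 and 300.3 CPM with mML56, against 24.1 CPM in CAM and 3.46 CPM in M-CSF macrophages (3.31). The naming rule required both mML56 libraries on the same side of CAM, so their agreement on the side is no check. Folr2, a folate receptor of resident macrophages, had 67.8 and 64.9 CPM against 7.26 CPM in CAM (3.11). Nupr1, a stress-response regulator, had 183 and 199 CPM against 21 CPM (3.10). M-CSF macrophages had 95.3 CPM of Folr2 and 7.24 CPM of Nupr1. Nuak2, a stress-activated kinase, had 80.7 and 77.1 CPM with mML56, against 10.5 CPM in CAM (2.83). The remaining members of the 12 were Ifi27l2a (3.25), Rpl30 (3.18), the chaperone Hspa8 (3.16), Rpl31 (3.01) and Serpinb6a (2.85). Rpl30, Rpl31 and Hspa8 have processed copies that could share their reads. Eif1, a translation start factor that most cells use, was listed at 0 in CAM and had 43.3 and 60.4 CPM with mML56, so its listed 0 may be a failed estimate.

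**Figure D2:**
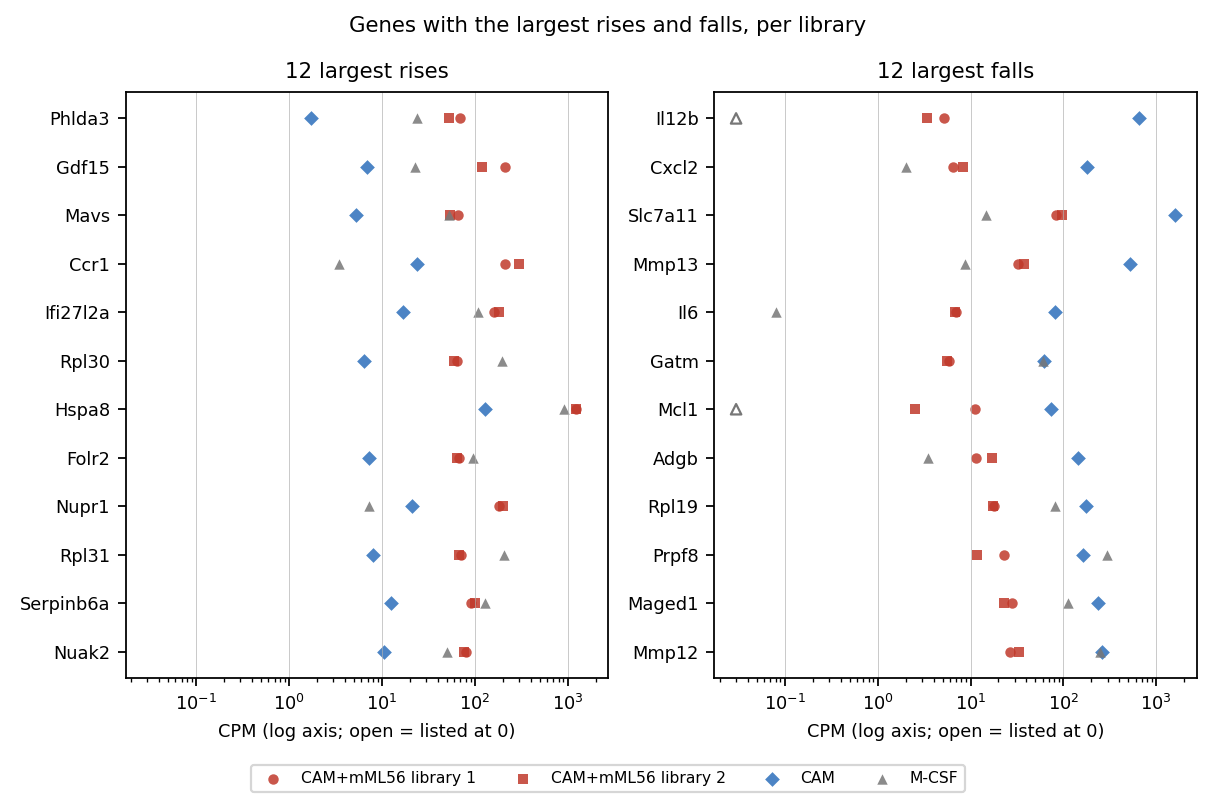
CPM (x axes, log scale) in each library for the 12 genes with the largest rises (left) and the 12 with the largest falls (right); red circles and squares are mML56 libraries 1 and 2, blue diamonds CAM and grey triangles M-CSF, with open symbols for a listed 0. The rule that chose these 24 genes required both mML56 libraries on 1 side of CAM. Il12b, for example, stood at 5.22 and 3.38 CPM against 643 CPM.

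The secreted signals of activated macrophages moved in both directions. Of 22 cytokines and mediators 18 were tested, of which 5 rose and 6 fell (3 and 6 by DESeq2), with a median log2 fold change of -0.24. Il1a, an alarm cytokine, had 114 and 139.9 CPM with mML56, against 1047 CPM in CAM (-3.13). Il1b, which is released after inflammasome activation, had 0.184 and 0.906 CPM with mML56, against 16.6 CPM in CAM (-5.06, or -4.33 and -6.64 with library 1 or library 2 left out). Il18, which is processed by the same protease, rose to 18.2 and 20 CPM with mML56, against 5.71 CPM in CAM (1.65). Osm, a cytokine of the IL-6 family, and Ebi3, a subunit shared by IL-27 and IL-35, also rose, with log2 fold changes of 1.65 and 1.00. Tnf was listed at 0 in every library, which may be a failed estimate, and could not be tested.

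Most tested chemokines fell. Of 13 CXC chemokines 10 were tested, of which 7 fell and 1, Pf4, rose (4 and 1 by DESeq2), with a median of -1.48. Cxcl9, which draws T cells through Cxcr3, had 1026 and 870.4 CPM with mML56, against 3625 CPM in CAM and 1.78 CPM in M-CSF macrophages (-2.01). Cxcl10, a ligand of the same receptor, had 11.5 and 22.4 CPM with mML56, against 53.3 CPM in CAM (-1.76). Both stayed above their unstimulated values in each mML56 library. Of 12 CC chemokines 11 were tested, of which 8 fell and 2 rose (6 and 1 by DESeq2; 5 fell with no filter on low counts), with a median of -0.77. Ccl3, which draws monocytes, had 57.9 and 64.6 CPM with mML56, against 471 CPM in CAM and 62.7 CPM in M-CSF macrophages (-3.03). Ccl4 followed it, with 14.8 and 17.2 CPM against 77.5 CPM in CAM (-2.37), and Ccl22, which draws regulatory T cells, had 1.95 and 1.73 CPM against 18.9 CPM (-3.43). Ccl5 rose, with 5994 and 6206 CPM under mML56, against 2379 CPM in CAM and 4.83 CPM in M-CSF macrophages (1.27). With Ccl5 included, CC chemokines summed to 7072 and 7511 CPM with mML56, above the 4524 CPM in CAM. The CXC chemokines summed to 1783 and 1754 CPM with mML56, below the 4745 CPM in CAM.

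Upstream of these signals, receptors and adaptors that detect microbes fell in 7 and rose in 2 of 22 tested members (5 and 1 by DESeq2, and 8 and 1 with the length offset described below), with a median of -0.36. Cd14, which hands LPS to TLR4, had 210.4 and 260.4 CPM with mML56, against 712 CPM in CAM (-1.69). Tlr8 and Tlr1 fell by 1.23 and 0.94 on the log2 scale, while Irak1, a kinase below the receptors, had 87.8 and 96.3 CPM with mML56, against 27 CPM in CAM (1.68). Of 14 tested NF-kB subunits and inhibitors 4 rose and 3 fell (3 and 3 by DESeq2), or 28.6% and 21.4%. Over all tested genes the shares were 20.6% and 17.1%. Nfkb2, the p52 precursor, rose with 98.1 and 102 CPM under mML56, against 25.3 CPM in CAM (1.90), and Rela by 0.61. Nfkb1, the p50 precursor, had 143 and 131 CPM with mML56, against 385 CPM in CAM (-1.57). Rel, the c-Rel subunit, had 114 and 117 CPM with mML56, against 221 CPM in CAM and 128 CPM in M-CSF macrophages. Its log2 fold change was -1.02, and -0.69 with the length offset. Among 24 tested brakes on inflammatory signalling 12 fell and 4 rose (7 and 3 by DESeq2). Zfp36, which destabilises cytokine mRNAs, had 673 and 699 CPM with mML56, against 269 CPM in CAM (1.27), and Socs3, a feedback inhibitor of cytokine receptors, 1304 and 1511 CPM against 625 CPM (1.08). Dusp1, a MAP kinase phosphatase, rose by 0.73, while Dusp4 and Peli1 fell by 1.36 and 1.13. Of 22 tested AP-1 and immediate early factors 5 rose and 3 fell (4 and 2 by DESeq2). These shares, 22.7% and 13.6%, were near the 20.6% and 17.1% over all tested genes. Klf4, a transcription factor of monocyte lineage, had 387 and 468 CPM with mML56, against 92.6 CPM in CAM (2.12), and Egr1 fell by 1.89.

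Genes of the interferon response moved both ways. Among 22 tested interferon regulatory factors, JAKs and STATs 5 rose and 2 fell (5 and 1 by DESeq2). Those shares, 22.7% and 9.09%, stand beside 20.6% and 17.1% over all tested genes. The counts were 9 and 1 when scaled by library size alone, and 8 and 1 without the M-CSF library. With no filter on low counts 1 fell. Irf1 had 1916 and 1882 CPM with mML56, against 827 CPM in CAM (1.12), and Irf7, which drives type I interferon genes, 1158 and 1204 CPM against 518 CPM (1.10). Jak3 rose by 2.74 and Ifnar2, a subunit of the type I interferon receptor, by 1.85, whereas Jak2, which the IFNγ receptor uses, had 347 and 364 CPM with mML56, against 839 CPM in CAM (-1.32). Of 19 tested guanylate-binding proteins and immunity-related GTPases 7 rose and 7 fell (7 and 5 by DESeq2; 4 fell with no filter on low counts). Gbp2b had 161 and 138 CPM with mML56, against 53.9 CPM in CAM (1.39), and Gbp4 had 2316 and 2832 CPM against 4831 CPM (edgeR adjusted p = 0.00227), and so fell. Gbp10 (1.57) and Gbp6 (-0.86) are near-identical copies, so the division of reads between them is uncertain. Of 37 tested antiviral effectors and sensors 10 rose and 10 fell (8 and 8 by DESeq2). The share was 27% each way, beside 20.6% higher and 17.1% lower over all tested genes. In the bin of genes with the highest level, described below, 26.8% rose and 25.8% fell. Tmem173, which encodes STING, rose with 79.4 and 87.6 CPM under mML56, against 34.9 CPM in CAM (1.17), and Ifitm1 rose by 3.11. Rsad2, which encodes viperin, had 2368 and 2936 CPM with mML56, against 5639.7 CPM in CAM (-1.18), and Oasl1 and Adar fell by 1.67 and 1.34.

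Class I antigen presentation moved mostly one way. Of 23 tested class I and immunoproteasome genes 15 rose and 1 fell (15 and 1 by DESeq2; 2 fell with RLE factors and 0 with the robust prior), with a median of 1.00. The share that rose, 65.2%, stands beside 20.6% over all tested genes. H2-T22 had 519.8 and 513 CPM with mML56, against 92.1 CPM in CAM (2.40), H2-K1 1368 and 1798 CPM against 244 CPM (2.60), and H2-Q6 1138 and 1361 CPM against 194 CPM (2.60). These heavy chain genes resemble each other closely and may share reads. The fall was in Nlrc5, a transcriptional activator of the class I locus, with 16.1 and 34.4 CPM under mML56, against 54 CPM in CAM (-1.21), and it was not called with the robust prior (adjusted p = 0.115). Class II genes moved both ways. Of 10 tested members 5 fell and 4 rose (4 and 2 by DESeq2, and 5 and 2 with the length offset). Ciita, the class II transactivator, had 25.4 and 28.8 CPM with mML56, against 73.1 CPM in CAM (-1.52). Its targets H2-Eb1 and H2-Ab1, the beta chains of the class II molecules I-E and I-A, and Cd74, the invariant chain, fell by 1.95, 1.33 and 1.90. Ctss, the cathepsin that removes the invariant chain, rose with 3311 and 3283 CPM under mML56, against 1627 CPM in CAM (0.94). H2-Oa, a modulator of peptide loading, rose by 2.63. Among 17 tested co-stimulatory and checkpoint ligands 5 rose and 3 fell (3 and 3 by DESeq2 and with the length offset). Slamf1 and Vsir, an inhibitory ligand also called VISTA, rose by 2.20 and 1.86, and Tnfsf15 fell by 2.84.

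**Figure D3:**
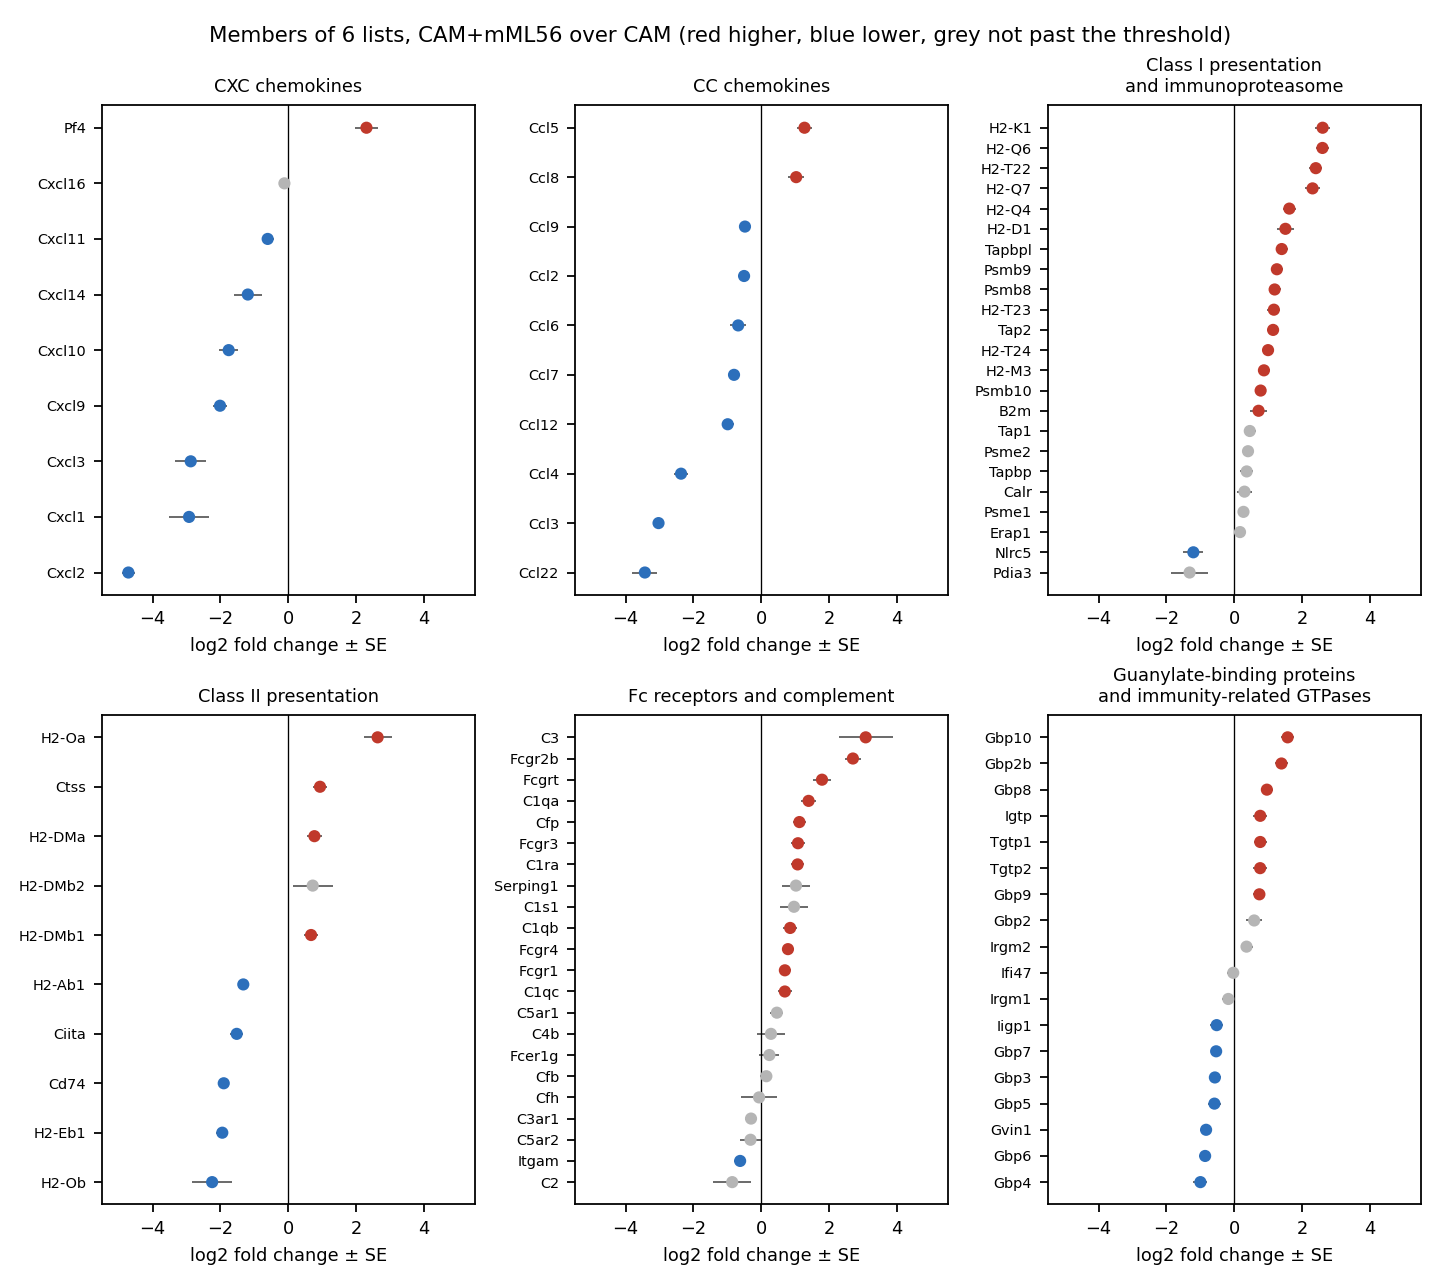
Log2 fold change of mML56-treated CAM over CAM (x axes) with its standard error (bars) for members of 6 lists that reach 3 CPM in either group; red members rose, blue members fell and grey members did not pass. Class I members lie mostly to the right (15 of 23 rose), CXC and CC chemokines mostly to the left (7 of 10 and 8 of 11 fell), and the class II members on both sides.

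Ptgs2 and Nos2, which make prostaglandins and nitric oxide, fell but stayed above their unstimulated levels. Ptgs2, the inducible cyclooxygenase, had 4546 and 4185 CPM with mML56, against 15877 CPM in CAM and 1.21 CPM in M-CSF macrophages (-1.94). Of 17 tested prostaglandin and leukotriene genes 7 fell and 6 rose (3 and 5 by DESeq2). Ptger4, a prostaglandin E2 receptor, had 14.1 and 10.4 CPM with mML56, against 0.487 CPM in CAM (4.56), and Lta4h and Alox5ap of the leukotriene branch rose by 1.77 and 1.30. Nos2, the inducible nitric oxide synthase, had 6089 and 5839 CPM with mML56, against 14248 CPM in CAM and 0.242 CPM in M-CSF macrophages (-1.34). Slc7a2, which imports its substrate arginine, had 529 and 736 CPM with mML56, against 3379 CPM in CAM (-2.51), and Arg1, which competes for arginine, fell by 2.21. Odc1, the first enzyme of polyamine synthesis, rose with 155 and 156 CPM under mML56, against 56.4 CPM in CAM (1.38). In this list 7 of 16 tested members fell and 3 rose (4 and 2 by DESeq2).

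Members of the glycolysis and hypoxia list, and of the antioxidant list, mostly fell where they changed. Of 26 tested glycolysis and hypoxia-response genes 13 fell and 3 rose (10 and 3 by DESeq2; 5 rose when scaled by library size alone), with a median of -0.55. Ero1l, a hypoxia-induced oxidase, had 477 and 458 CPM with mML56, against 1455 CPM in CAM (-1.72), and Slc16a3, the lactate exporter, 50.1 and 56.6 CPM against 159 CPM (-1.66). Hk3, a hexokinase of myeloid cells, rose with 844 and 944 CPM under mML56, against 289 CPM in CAM (1.54). The glycolytic enzyme Tpi1 had 1261 and 1229 CPM against 813 CPM (0.53). It was not called with RLE factors, no filter or the length offset. Pgk1, another such enzyme, had 2.35 and 2.82 CPM against 13.4 CPM (-2.47). The glycolysis and hypoxia list summed to 13975 and 13676 CPM with mML56, against 13820 CPM in CAM. Acod1, which makes itaconate, had 2684 and 3055 CPM with mML56, against 8303 CPM in CAM (-1.62). Its list, with the citric acid cycle, had 5 members that rose and 5 that fell of 24 tested (1 and 1 by DESeq2). With the length offset 3 rose. The share was 20.8% each way, beside 20.6% higher and 17.1% lower over all tested genes. Of 28 tested NRF2 targets and glutathione genes 13 fell and 4 rose (6 and 4 by DESeq2; 7 rose when scaled by library size alone), with a median of -0.45. Prdx5, a peroxidase, had 40.9 and 37.1 CPM with mML56, against 161 CPM in CAM (-2.12), and Gsr and Txnrd1, which recycle glutathione and thioredoxin, fell by 1.05 and 0.85. The glutathione peroxidases Gpx1 and Gpx4 rose, by 2.57 and 1.47.

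Mitochondrially encoded and nuclear genes of the respiratory chain moved apart. Of 13 mitochondrially encoded genes 12 fell and none rose (12 and 0 by DESeq2), with a median of -1.53. mt-Co2 had 265 and 242 CPM with mML56, against 1373 CPM in CAM and 4969 CPM in M-CSF macrophages (-2.52), and mt-Cytb 218 and 197 CPM against 822 CPM in CAM (-2.07). The member that did not pass was mt-Co1, at 9651 and 6979 CPM with mML56 and 7219 CPM in CAM. Mitochondrially encoded genes took 1.32% and 1.01% of counts with mML56, against 1.63% in CAM and 6.08% in M-CSF macrophages. Lars2, the mitochondrial leucyl-tRNA synthetase and the gene with the most counts, took 7.49% and 5.09% with mML56, against 10.1% in CAM. Whether the reads counted for Lars2 come from its own mRNA was not tested. Of 32 nuclear respiratory chain subunits 13 rose and none fell (7 and 0 by DESeq2), with a median of 0.48. Ndufs3, a complex I subunit, had 56.1 and 55.9 CPM with mML56, against 15.8 CPM in CAM (1.74), and Cyc1, cytochrome c1, 63.1 and 63.5 CPM against 18.5 CPM (1.69).

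Fth1, the ferritin heavy chain, had 38819.8 and 34412 CPM with mML56, against 16419 CPM in CAM (1.08), and Slc11a1, an iron and manganese transporter of phagosomes, 1525 and 1596 CPM against 685 CPM (1.10). In the iron and heme list 5 of 18 tested members rose and 5 fell (3 and 1 by DESeq2, 3 and 7 with the length offset). With no filter on low counts 3 fell. The share was 27.8% each way, beside 20.6% higher and 17.1% lower over all tested genes. Of 14 tested acute-phase and secreted defence genes, Saa3 among them, 6 rose and 3 fell (4 and 1 by DESeq2). Orm1, an acute-phase glycoprotein, had 10.1 and 11.9 CPM with mML56, against 0.194 CPM in CAM (5.68). Lyz2, lysozyme, had 2569 and 2353 CPM with mML56, against 4072 CPM in CAM and 25937 CPM in M-CSF macrophages (-0.81). Of 17 tested coagulation, plasminogen and serpin genes 6 fell and 3 rose (4 and 2 by DESeq2). Thbs1, thrombospondin, had 686 and 764 CPM with mML56, against 2856 CPM in CAM (-2.06), and Plau, urokinase, 254 and 217 CPM against 61.9 CPM (1.85).

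Of 23 tested amino acid transport and integrated stress response genes 5 rose and 5 fell (5 and 2 by DESeq2), or 21.7% each way beside 20.6% and 17.1% over all tested genes, with Slc6a19, an amino acid transporter, at 215 and 229 CPM with mML56, against 67.1 CPM in CAM (1.64), and Psat1, of serine synthesis, at 18.5 and 12.1 CPM against 77.3 CPM (-2.40). Of 25 tested unfolded protein and heat shock genes 5 fell and 4 rose (3 and 2 by DESeq2; 3 fell with no filter on low counts), so neither list stood far from those shares. Canx, an endoplasmic reticulum chaperone, had 502 and 443 CPM with mML56, against 873 CPM in CAM (-0.96), and Hsp90b1, another, 54.5 and 38.5 CPM against 10.1 CPM (2.12). In the list of Ninj1 and lytic death 7 of 20 tested members rose and 4 fell (5 and 3 by DESeq2). Gsdmd, which forms the pyroptotic pore upstream of Ninj1, had 266 and 272 CPM with mML56, against 65.4 CPM in CAM (1.96). Ripk3, the necroptosis kinase, had 7.47 and 13.2 CPM against 0.608 CPM (4.03). Nlrp3, the inflammasome sensor, had 133 and 151 CPM with mML56, against 489.5 CPM in CAM and 128 CPM in M-CSF macrophages (-1.88), and Nlrc4 fell by 1.11. Pycard, the adaptor that joins sensor to caspase, rose by 1.25. Of 15 tested BCL2 family members 7 fell and 2 rose (2 and 1 by DESeq2), with a median of -0.96. Bcl2l1, which encodes BCL-XL, had 125 and 107 CPM with mML56, against 43.8 CPM in CAM (1.33), and Bcl2a1b had 34 and 33.6 CPM against 91.1 CPM (-1.51), a value that its near-identical copies make uncertain.

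In the matrix, adhesion and cytoskeletal lists more members fell than rose. Of 23 tested metalloproteinases, inhibitors and matrix genes 12 fell and 3 rose (6 and 3 by DESeq2), with a median of -0.93. Timp1, a metalloproteinase inhibitor, rose with 17.5 and 16.6 CPM under mML56, against 2.03 CPM in CAM (2.98), and Lox, which cross-links collagen, had 1.25 and 0.825 CPM against 28.3 CPM (-4.83). Of 21 tested integrins and adhesion receptors 7 fell and 3 rose (4 and 2 by DESeq2). Itgal, the αL chain of LFA-1, had 257 and 246 CPM with mML56, against 1166 CPM in CAM and 45.3 CPM in M-CSF macrophages (-2.30). Itga4 had 58.8 and 63.7 CPM with mML56, against 408 CPM in CAM and 778 CPM in M-CSF macrophages (-2.82). Selplg, the selectin ligand PSGL-1, rose with 389 and 440.4 CPM under mML56, against 82.6 CPM in CAM (2.24). Of 28 tested actin and motility genes 10 fell and 4 rose (8 and 2 by DESeq2, and 11 and 2 with the length offset). Actr2, of the Arp2/3 complex, and Lcp1, an actin bundler, fell by 1.35 and 1.25, and Wasf2 rose by 1.53. Actg1 (-4.60) and Actb (1.06) moved oppositely, but both have many processed copies and share sequence.

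Macrophage identity and uptake genes completed the lists. Of 23 tested identity genes 8 rose and 8 fell (7 and 8 by DESeq2). Cd68, a lysosomal membrane protein used as a macrophage marker, had 35.3 and 32.6 CPM with mML56, against 1.04 CPM in CAM and 16.7 CPM in M-CSF macrophages (4.90), and Cebpa, a myeloid transcription factor, 16.8 and 16.6 CPM against 0.544 CPM in CAM and 22.8 CPM in M-CSF macrophages (4.74). Trem2, a lipid-sensing receptor of macrophages, rose by 1.35. Cx3cr1, the fractalkine receptor, had 1.31 and 2.28 CPM with mML56, against 30.6 CPM in CAM (-4.17), and Mrc1, the mannose receptor, 8.18 and 4.87 CPM against 32.2 CPM in CAM and 3126 CPM in M-CSF macrophages (-2.37). Of 26 tested scavenger, lectin and efferocytosis receptors 9 fell and 5 rose (8 and 4 by DESeq2), with Clec7a, the β-glucan receptor Dectin-1, at 15.2 and 16 CPM with mML56, against 69.8 CPM in CAM (-2.25). Of 23 tested Fc receptor and complement genes 11 rose and 1 fell (11 and 1 by DESeq2, and 8 and 0 with the length offset), with a median of 0.70. Fcgr2b, the inhibitory Fc receptor, had 97.9 and 146 CPM with mML56, against 17.6 CPM in CAM (2.70), and C1qa 282 and 225 CPM against 91.4 CPM (1.40). Of 30 tested cathepsin and lysosome genes 14 rose and 5 fell (16 and 4 by DESeq2), with a median of 0.63. Ctsh had 600.0 and 814 CPM with mML56, against 102 CPM in CAM (2.69), Lgmn 1771 and 1528 CPM against 504 CPM (1.63), and Tfeb, a regulator of lysosomal genes, rose by 1.93. Ctsc fell, with 291 and 354 CPM under mML56, against 1034 CPM in CAM (-1.77).

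**Figure D4:**
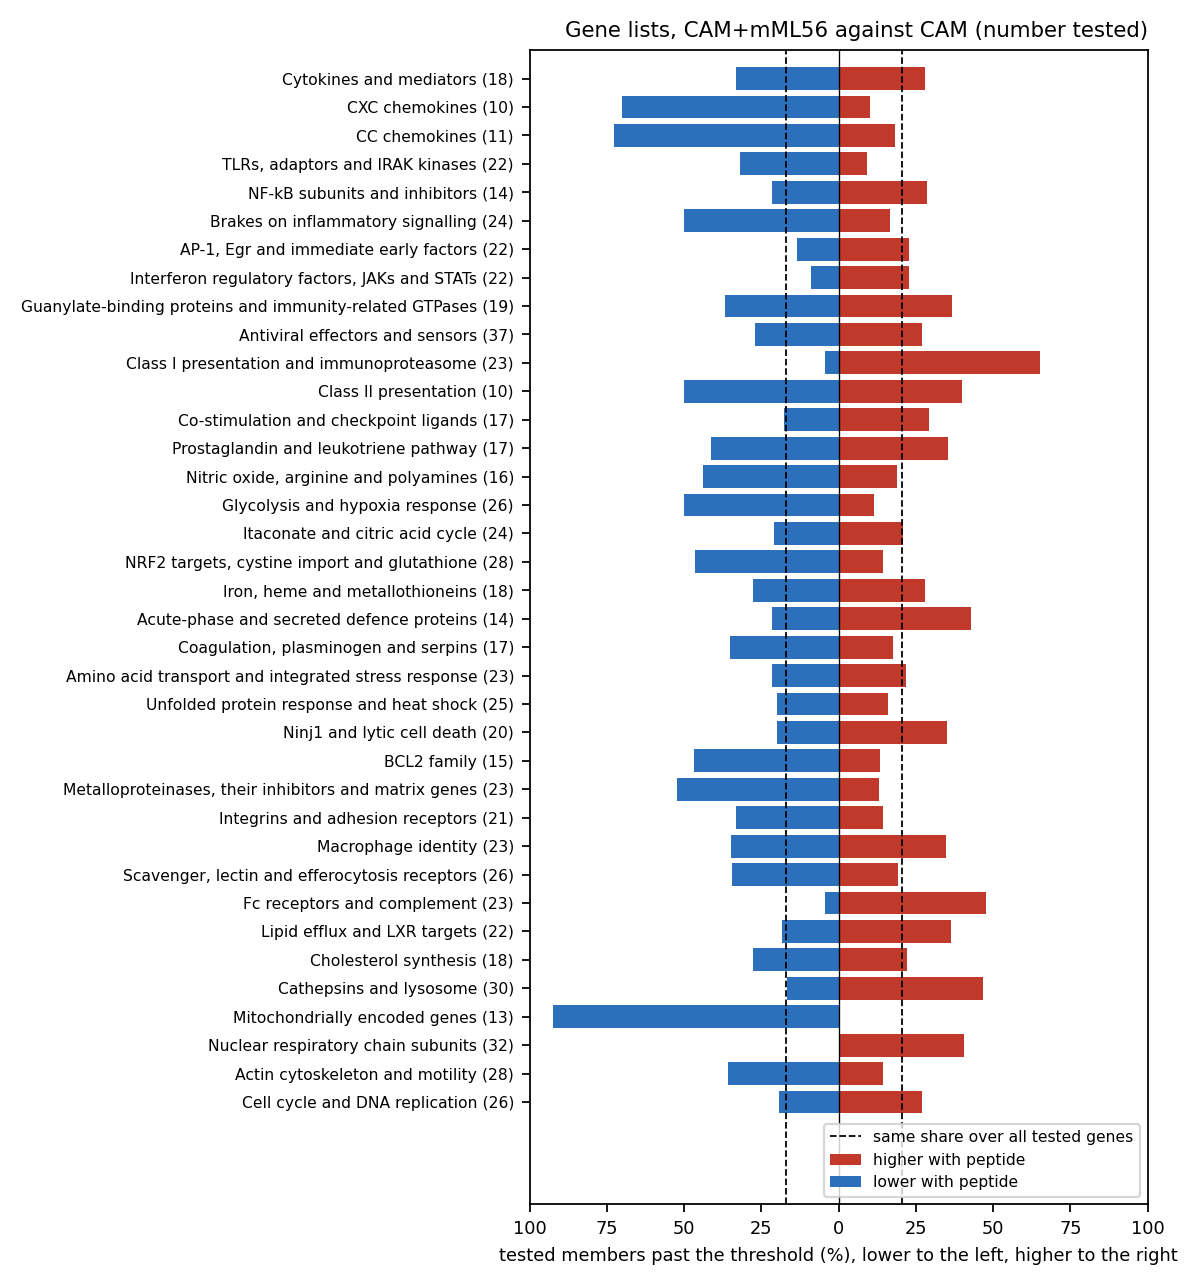
Share of tested members (x axis, %) that fell (blue, left) or rose (red, right) with mML56 in each of 37 lists, with the number tested in parentheses; dashed lines mark 17.1% lower and 20.6% higher over all tested genes. Mitochondrially encoded genes and chemokines extend farthest to the left, and class I genes farthest to the right.

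Lipid and cell cycle genes were mixed. Of 22 tested lipid efflux and LXR targets 8 rose and 4 fell (7 and 2 by DESeq2). Abcg1, a cholesterol exporter, had 505 and 484 CPM with mML56, against 161 CPM in CAM (1.53), Pltp, a phospholipid transfer protein, 28.7 and 31.8 CPM against 1.92 CPM (3.87), and Apoe 304 and 311 CPM against 1281 CPM (-2.14). Of 18 tested cholesterol synthesis genes 5 fell and 4 rose (1 and 2 by DESeq2). These shares, 27.8% and 22.2%, stand beside 17.1% and 20.6% over all tested genes. Ch25h, which makes the oxysterol 25-hydroxycholesterol, had 18.5 and 23 CPM with mML56, against 92.9 CPM in CAM (-2.25). Of 26 tested cell cycle genes 7 rose and 5 fell (5 and 3 by DESeq2), or 26.9% and 19.2%, beside 20.6% and 17.1%. Cdkn1a, the cycle inhibitor p21, had 1938 and 1783 CPM with mML56, against 929.5 CPM in CAM (0.92), and Mki67, a proliferation marker, 58.2 and 51 CPM against 125 CPM (-1.28).

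Calls differed with the length and level of transcripts. Tested genes were divided into 5 equal bins of length. In the bin with the longest transcripts (4134 to 123179 bases) 13.2% rose and 26.3% fell, with a median log2 fold change of -0.20, and in the bin from 940 to 1872 bases 25.4% rose and 12.3% fell, with a median of 0.28. An offset that removes this trend, chosen after the data were seen, gave 2613 genes higher and 2358 lower. In the bin of genes with the highest level 26.8% rose and 25.8% fell, against 9.46% and 9.78% in the lowest bin, and members of these lists are mostly well expressed. The part of RNA quality in the length trend was not tested.

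**Figure D5:**
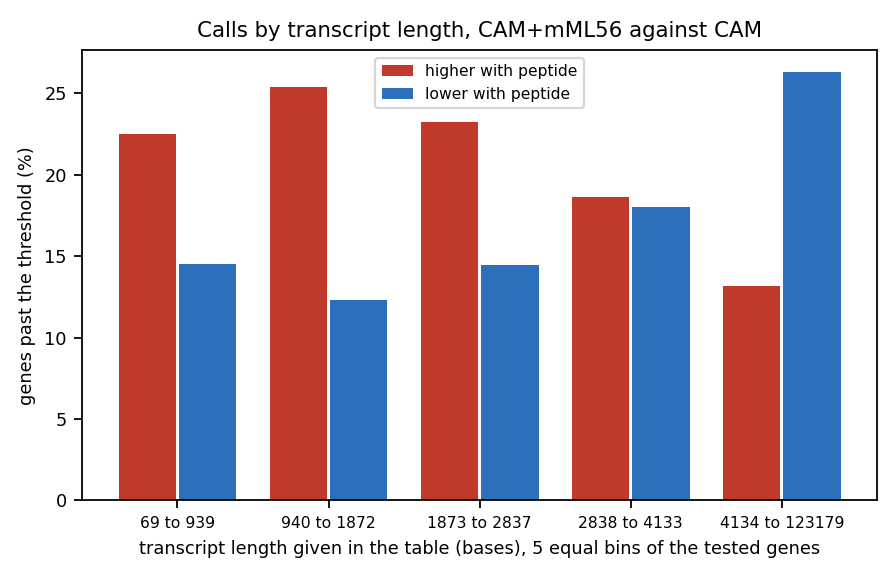
Percent of tested genes (y axis) that were higher (red) or lower (blue) with mML56 in 5 bins of transcript length (x axis, bases). The share that fell reaches 26.3% in the longest bin, where 13.2% rose.

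Between the mML56 libraries the genes most apart were Plec, Gripap1, Ly6a, Pkp4, H6pd and Myo1f. Ly6a, which encodes the interferon-induced surface protein Sca-1, had 379 and 773 CPM in mML56 libraries 1 and 2, against 188 CPM in CAM (log2 fold change 1.51). Both libraries lay above CAM, but DESeq2 (adjusted p = 0.119) and the robust prior (adjusted p = 0.188) did not call it. Plec, a cytolinker, had 93.3 and 30.7 CPM with mML56, against 170.0 CPM in CAM (-1.51, or -2.62 and -0.84 with library 1 or library 2 left out), and was also lost with DESeq2 (adjusted p = 0.501), the robust prior (adjusted p = 0.535), the length offset (adjusted p = 0.134) and no filter on low counts (adjusted p = 0.0531).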

How the data were processed

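Messenger RNA was sequenced in 4 libraries made with the NEXTflex Rapid Directional kit, per the labels' protocols. The authors deposited 1 table of estimated counts for each gene, with no scaling; 61.5% to 69.5% of the values in a library were whole, within 1e-06. The submitters' processing notes name mm10, kallisto and StringTie, and their settings and annotation version were not given in the sources used here. Columns were matched to samples by the treatment they name. The M-CSF and CAM columns carry numbers (2 and 1) that their titles lack, the CAM column was tied to its title through the labels' treatment protocol, and 1 mML56 column was matched only to its group. An exact 0 can be a failed estimate, and processed pseudogenes (6902 in the table) and near-identical genes can divide reads. Totals of 10334062 to 12842750 counts set the precision.

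Counts were rounded. filterByExpr in edgeR 4.0.16 (R 4.3.3) kept 14104 genes, with TMM factors of 0.906 and 0.993 (mML56), 0.894 (CAM) and 1.24 (M-CSF). Genes were tested by edgeR's quasi-likelihood method, Benjamini-Hochberg adjusted at 0.05, in 1 model of 3 groups over the 4 libraries without covariates. It had 1 residual degree of freedom (prior degrees of freedom 11.8, common dispersion 0.026, prior count 0.125), so the lone CAM and M-CSF libraries were assumed to vary like the mML56 pair. In simulated data on 14104 genes with this comparison's design, 100% of 4-fold and 30% of 2-fold changes were recovered and 3 unchanged genes were called. The simulated counts had the common dispersion in every gene and library, and few genes were changed. They therefore cannot show whether the lone CAM library varies like the mML56 pair, nor the rate of false calls in the real data. Fold changes use TMM scaling; printed CPM use column totals. Alternatives were RLE factors, library size only, no filter, leaving out M-CSF, a robust prior, DESeq2 1.42.0, each mML56 library left out, other CPM minimums and a length offset.

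The members and the 45 gene lists (871 genes) were chosen with earlier results of these data known. Named genes were the 12 largest rises and falls that reached 50 CPM, those listed at 0 in 1 group, up to 4 per list and direction that reached 10 CPM, the markers, and the 6 genes most apart between the mML56 libraries. The 12 largest rises and falls also needed values above 0 in each compared library and both mML56 libraries on 1 side of CAM. Gene models, pseudogenes and 26 date-like symbols were not named. Pf4, mt-Co1, Tnf, Lars2, Ly6g and Cd3e were named after their values were seen. Promoter windows came from RefSeq on GRCm38.p6. Looser forms of the NF-kB and interferon motifs, searched first, gave more matches in these windows and are not reported.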

Additional observations from a re-analysis of the deposited data

How the results depend on the processing

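The count of 2904 genes higher and 2416 lower with mML56 was 3013 and 2532 with RLE factors, 3122 and 1979 with library size only, 2577 and 1967 with no filter on low counts, 3197 and 2446 without the M-CSF library, 2906 and 2385 with a robust prior, and 2613 and 2358 with the length offset. DESeq2's Wald test called 1419 higher and 930 lower and gave no adjusted p for 1914 genes. DESeq2's own filter on low mean counts was left on. Why DESeq2 called fewer genes was not tested. Of all calls 54.6% were higher, and 52.6% to 61.2% over these alternatives. Of 777 tested list genes 426 were called, and 303 by DESeq2. Of all 14104 tested genes 5320 were called (37.7%), and in the bin with the highest level 26.8% rose and 25.8% fell. The 1670 genes at least 2-fold apart at 10 CPM were 3711 at 1 CPM or more and 620 at 50 CPM or more, since fewer genes pass a higher minimum. They were 1692 on TMM-scaled CPM, and 1665 to 1666 with either mML56 library left out. None of the 263 named genes that passed turned direction under the alternatives run. The balance of higher against lower turned in 3 lists. Prostaglandin and leukotriene genes had 5 higher and 3 lower by DESeq2 (6 and 7 in edgeR), cholesterol synthesis genes 2 and 1 by DESeq2 (4 and 5), and unfolded protein and heat shock genes 6 and 4 with library size only and 4 and 3 with no filter (4 and 5). Of 267 named genes, 45 lost their call with DESeq2, 23 with the length offset, 13 with the robust prior, 7 with RLE factors, 7 with no filter and 2 with library size only. Leaving out an mML56 library leaves no residual degrees of freedom, so those fits give values with no test. Without mML56 library 1, 138 of the 267 log2 fold changes moved by more than the SD of the pair, and 145 did without library 2. They moved by over 1.5-fold for 9.0 genes, with values without library 1 and without library 2 of -4.98 and -2.69 for Mcl1, -4.33 and -6.64 for Il1b, -6.27 and -2.74 for Ptges3, 3.78 and 1.70 for C3, and -2.62 and -0.84 for Plec. Without library 1 they were -3.96 for Prpf8, -3.12 for Fabp4, -0.51 for Pkp4 and 0.00089 for H6pd. Pkp4 (0.18 with both) and Gripap1 (0.31 with both, -0.22 without library 2), which did not pass, turned sign. No paired analysis was possible because the groups share fewer than 2 replicate numbers. CAM had 1 library, so no value of CAM has a replicate check, and the filter left the genes with the fewest counts out of the 14104 tested, against 19418 with no filter.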
